A study of Mus musculus with 2 samples.

Results

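Neutrophils of the mouse mammary gland were taken from 2 single-cell libraries, 1 of Gpm6a-deleted (KO) and 1 of wild-type (WT) animals, and numbered 86 of 21891 kept barcodes. They comprised 32 of 10907 KO barcodes and 54 of 10984 WT barcodes. Both libraries came from the 4th mammary gland of virgin C57BL/6 females aged 6 to 8 weeks, and cells negative for the dead-cell dye DAPI were sorted from 3 littermates per genotype after a 2 h collagenase digest, lysis of red cells and trypsin. The labels do not give the deleted stretch of Gpm6a or say whether the 3 animals were pooled, and they call the cells total primary mammary epithelial cells although the gate was on living cells only. With 1 library per genotype there was no replicate spread, so no test was made and every KO and WT value below compares 2 libraries.

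A barcode counted as a neutrophil when it held at least 10 unique molecular identifiers (UMIs, counted transcripts) of S100a8 plus S100a9, a UMI of at least 2 of Retnlg, Csf3r, Cxcr2 and Mmp9, none of the epithelial gene Epcam and fewer than 2 of the macrophage genes C1qa, C1qb and Mrc1. Barcodes also needed 1000 UMIs, 500 genes and at most 10% mitochondrial UMIs. Members were thus chosen by measured values of these genes, whose levels are given as a description. A level is the UMIs of a gene per 1000000 UMIs (CPM), summed over the neutrophils of a library. Values in brackets are 95% intervals that cover counting error only, by the exact Poisson method for a CPM and the exact Clopper-Pearson method for a share.

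Neutrophils are short-lived granulocytes made in the bone marrow, where their granule proteins are transcribed in sequence: primary (azurophil) granule enzymes first, specific granule proteins such as lactoferrin and cathelicidin next, and gelatinase granule proteins later. Mature cells leave the marrow under control of the chemokine receptors CXCR4 and CXCR2, are recruited by CXCR2 ligands and by G-CSF-driven output, and make IL-1 and chemokines once they enter tissue. In a healthy virgin gland few are expected beside resident macrophages, and some may come from blood held in the tissue.

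Markers that the rule did not use matched the label. Ly6g, a neutrophil surface antigen gene, was detected in 16 of 32 KO neutrophils and 31 of 54 WT neutrophils, at 206 (147 to 281) and 270.4 (226 to 321) CPM. The decoy IL-1 receptor gene Il1r2 was detected in 32 KO and 49 WT neutrophils, the histidine decarboxylase gene Hdc in 32 and 51, and the formyl peptide receptor gene Fpr2 in 21 and 46. The collagenase gene Mmp8 stood at 609 and 1128 CPM in KO and WT neutrophils, against 2.19 and 0 CPM in macrophages of the same libraries. Cxcr1 was near absent, with 0 KO and 3 WT UMIs. S100a8 and S100a9, which form the calcium-binding protein calprotectin and are high by the choice of members, stood at 116567 and 127970 CPM in KO neutrophils, against 113219 and 145382 CPM in WT neutrophils. The genes that stood highest over all other barcodes were Retnlg, S100a9, S100a8, Cstdc4, Ngp, Wfdc21, Mmp8, Camp, Chil3 and Stfa2l1, in that order.

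Genes of some other cells were low or absent and those of others were not. Of 12 macrophage genes 5 were at 0 in KO and 4 in WT neutrophils, and of 14 epithelial genes 6 and 3, rule genes among them. The macrophage list summed to 248 KO and 243 WT CPM and the epithelial list to 150 and 158 CPM. Monocyte genes, Chil3 among them, summed to 3589 and 5226 CPM. The 12 genes of mast cells and basophils were all at 0 in KO neutrophils and 8 of them in WT neutrophils. Fibroblast genes, by contrast, summed to 6534 CPM in KO and 23188 CPM in WT neutrophils and dendritic cell genes to 3311 and 1441 CPM, mostly in the mixed barcodes described with the shares. Gpm6a itself, a membrane glycoprotein gene best known from neurons, had a UMI in 0 of 32 KO neutrophils, which allows a share of up to 9.38% by a limit of 3 counts, and in 0 of 54 WT neutrophils, which allows up to 5.56%. These limits are on barcodes with a UMI, not on cells expressing the gene. The deletion could therefore not be checked in neutrophils; in all other barcodes Gpm6a stood at 0.216 CPM in the KO library and 1.82 CPM in the WT library.

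**Figure D1:**
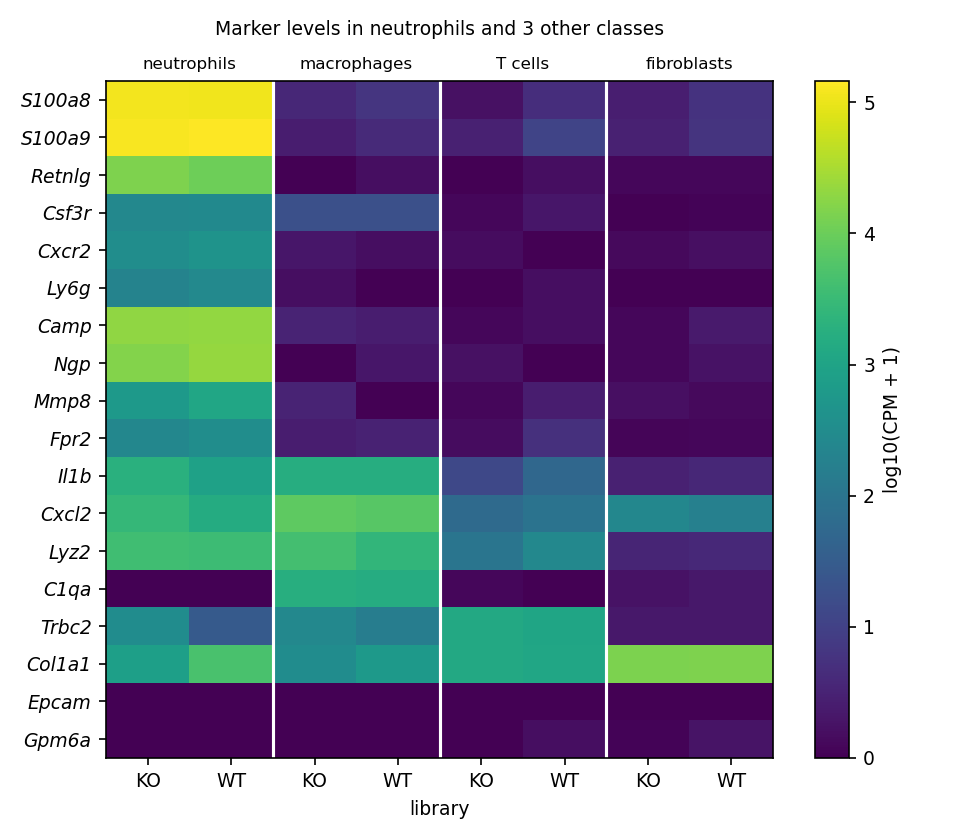
Levels of 18 genes as log10(CPM + 1), a colour scale, in neutrophils and 3 other classes of the KO and WT libraries. S100a8, Retnlg, Camp and Ngp stand out in neutrophils, while Il1b, Cxcl2 and Lyz2 are read at 883 CPM or more in both neutrophils and macrophages, and C1qa, one of the genes of the rule, is at 0 in neutrophils.

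The edge of the rule was sharp on the S100 genes and less so on the others. The lowest sums of S100a8 and S100a9 among neutrophils were 15, 61 and 86 UMIs in the KO library and 16, 30 and 42 in the WT library, against medians of 908.5 and 1061. Only 2 WT barcodes and no KO barcode met every other criterion with a sum of 1 to 9, and each of these held 1 UMI. Of the barcodes with at least 10 S100 UMIs, 10 KO and 15 WT barcodes had fewer than 2 of the 4 genes, and Epcam removed a further 7 KO and 12 WT barcodes. Among all barcodes outside the rule, 4.13% in the KO library and 10.8% in the WT library held an S100a8 or S100a9 UMI, with a median of 0 in both. The 33 barcode sequences that the libraries share included no neutrophil.

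Some granule-rich barcodes fell outside the rule. Taking Ngp, Camp and Ltf together at 5% or more of UMIs and no other cell type's genes at 20 UMIs, 2 KO and 3 WT barcodes with S100a8 and S100a9 were left out, through 1 or 2 Epcam UMIs or through fewer than 2 of the 4 genes. Most of these held dividing-cell genes, 2 in each library. The deepest, a KO barcode with 39633 UMIs and 1 Epcam UMI, had 11228 S100 UMIs, 3115 of Camp, 98 of the elastase gene Elane, 64 of Prtn3 and 14 of the myeloperoxidase gene Mpo. Within the rule, by contrast, the primary granule genes were almost unread: Mpo had no UMI in either library, Elane and Ctsg had 0 KO and 1 WT UMI each, and Prtn3 had 4 KO and 14 WT UMIs. All 14 WT UMIs of Prtn3 lay in 1 barcode. The earliest granulocytes are thus described here only as values outside the rule.

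Neutrophils were the smaller share in the KO library. They made up 0.293% (0.201 to 0.414%) of KO barcodes and 0.492% (0.370 to 0.641%) of WT barcodes, a log2 ratio of -0.74 with a counting interval of -1.42 to -0.09. Set against barcodes with a UMI of the leukocyte gene Ptprc (or neutrophils), 1953 KO and 1265 WT, the shares were 1.64% (1.12 to 2.31%) and 4.27% (3.22 to 5.53%). This wider gap has a denominator that itself differs, since the KO library held 606 T cells and the WT library 265, while they held 140 and 133 macrophages. Shares are of living cells that withstood digestion and sorting, and how neutrophils came through these steps in each library was not tested.

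Barcodes that also carried another cell type's genes were more frequent among WT neutrophils and touch every comparison below. With a limit of 20 UMIs on any of 7 lists of other cells, chosen after the data had been seen, 5 of 32 KO neutrophils (15.6%, 5.28 to 32.8%) and 14 of 54 WT neutrophils (25.9%, 15.0 to 39.7%) were mixed. Fibroblast genes reached 20 UMIs in 2 KO barcodes, the higher with 776, and in 12 WT barcodes, the highest with 2145. Dendritic cell genes did so in 2 KO barcodes (up to 543 UMIs) and 1 WT barcode (667), and T and NK cell genes in 2 KO barcodes (up to 77) and 1 WT barcode (29). Scrublet, a doublet caller, marked 1 KO and 2 WT neutrophils. Without the mixed barcodes the shares were 0.248% (0.163 to 0.360%) of KO and 0.364% (0.260 to 0.496%) of WT barcodes, and the log2 ratio of -0.56 had an interval of -1.32 to 0.18 that takes in 0. Leaving out only members with fibroblast genes gave 30 KO and 38 WT neutrophils and a log2 ratio of -0.33 (-1.07 to 0.40).

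**Figure D2:**
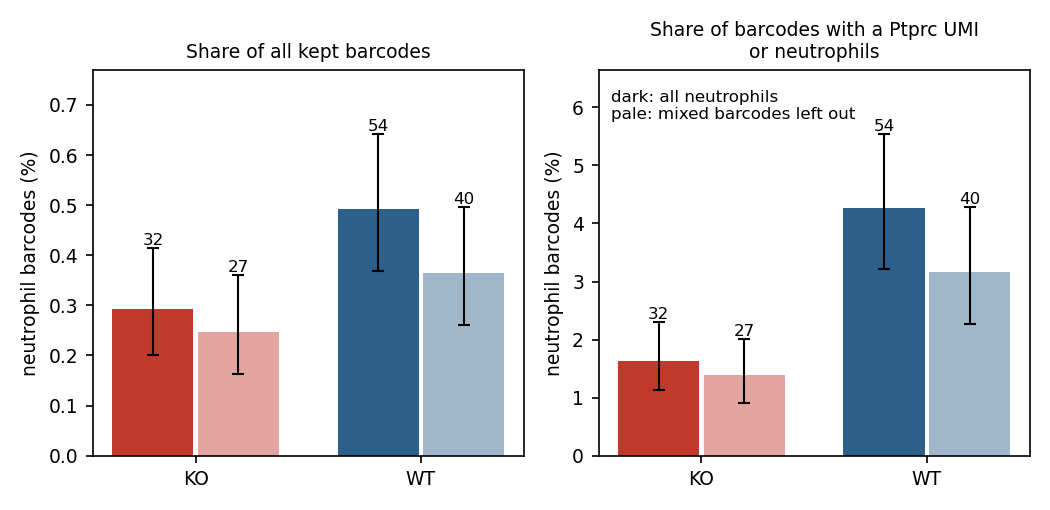
Share of neutrophils among all kept barcodes (left) and among barcodes with a Ptprc UMI or neutrophils (right), KO before WT, with numbers of neutrophils above the exact 95% intervals. Dark bars show all neutrophils and pale bars those without mixed barcodes; the KO bar is the lower in each pair, and among all kept barcodes the intervals overlap.

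Neutrophils held fewer UMIs than fibroblasts in both libraries. Their median was 3555.5 UMIs and 869 genes in the KO library and 5810 UMIs and 1190.5 genes in the WT library, and without mixed barcodes 3272 and 4197.5 UMIs. T cells had medians of 4959 and 5294 UMIs and fibroblasts of 8409 and 10726.5. Mitochondrial UMIs were low, at medians of 0.265% in KO and 0.561% in WT neutrophils, against 3.48% and 3.69% in T cells. Depth among neutrophils followed their granule transcripts, as described next.

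The neutrophils of each library ranged from barcodes rich in granule transcripts to barcodes rich in cytokine transcripts, a spread called the axis here. The granule share, the UMIs of Ngp, Camp and Ltf as a percent of a barcode's total, ran from 0 to over 10% in both libraries. Across the unmixed neutrophils it ran against the summed level of 25 secreted cytokines and chemokines, with a Spearman rho of -0.79 over 27 KO barcodes and -0.87 over 40 WT barcodes. It ran against the NF-kB feedback genes too (-0.75 and -0.72) and against interferon-stimulated genes (-0.62 and -0.71). Both ends went with depth: the granule share followed it, with a rho of 0.87 in KO and 0.89 in WT neutrophils. The cytokine level ran against depth (-0.71 and -0.84), as did NF-kB feedback genes (-0.71 and -0.76) and interferon-stimulated genes (-0.55 and -0.72). The part of depth in the axis was not tested, and these points share a library and are given without a p. The marker Retnlg, which codes for a resistin-like protein, followed the granule share weakly (0.42 and 0.28), and in both libraries it peaked between the ends of the axis.

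**Figure D3:**
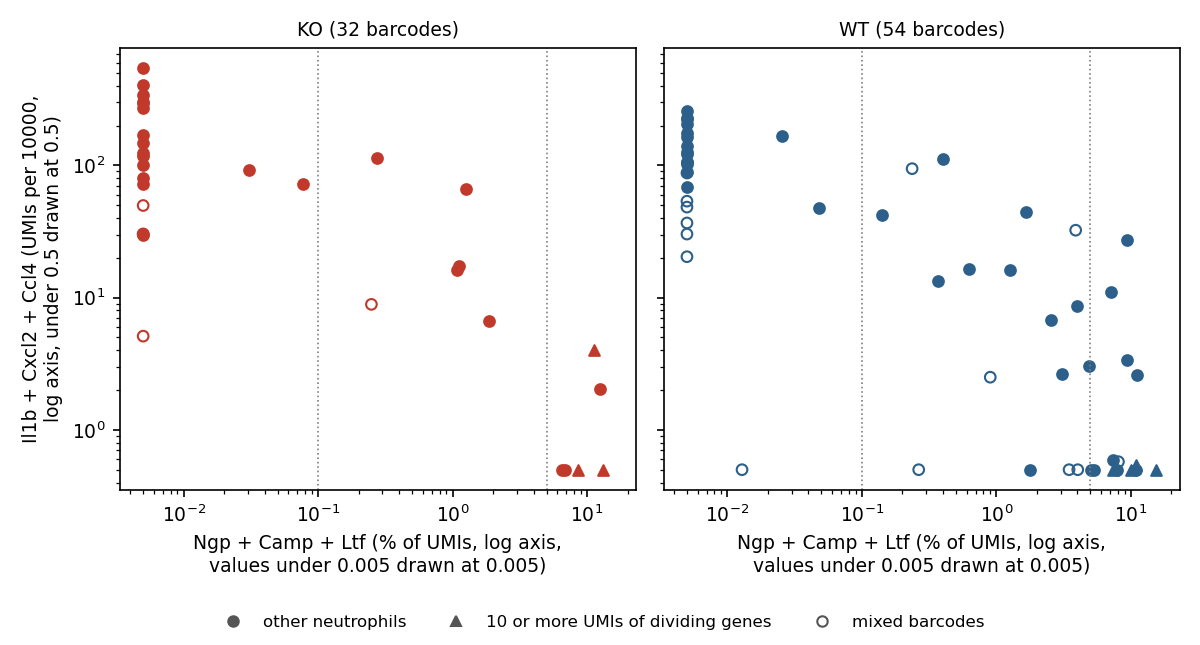
Each point is a neutrophil barcode of the KO (left) or WT (right) library, by the percent of its UMIs from Ngp, Camp and Ltf (x, log axis) and the UMIs of Il1b, Cxcl2 and Ccl4 per 10000 (y, log axis), with the lowest values drawn at the edge. Dotted lines mark 0.1% and 5%; triangles mark the 3 KO and 4 WT barcodes with at least 10 UMIs of dividing-cell genes, and open circles mixed barcodes. Filled points run from upper left to lower right in both libraries.

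Limits at 0.1% and 5% of UMIs, set after the values had been seen, cut the axis into ranges, which are not cell types. Of the unmixed neutrophils, 16 of 27 KO (59.3%, 38.8 to 77.6%) and 16 of 40 WT (40%, 24.9 to 56.7%) lay in the low range. The middle range held 5 KO (18.5%) and 11 WT (27.5%) barcodes. In the high range lay 6 KO (22.2%, 8.62 to 42.3%) and 13 WT (32.5%, 18.6 to 49.1%) barcodes, and the intervals of both libraries overlap in each range. Within 1.5-fold of the 5% limit stood 2 KO and 7 WT barcodes, and of the 0.1% limit 1 in each. Median depth was 2296.5 KO and 2512.5 WT UMIs in the low range and 11928 KO and 8725 WT UMIs in the high range. Because deep barcodes weigh most in a sum, the low range gave 28.3% of the UMIs of unmixed KO neutrophils and 14.4% of those of WT neutrophils, and the high range 51.1% and 68.3%.

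The high range carried specific granule transcripts. Camp, the gene of the antimicrobial cathelicidin, stood at 57232 CPM in KO and 44055 CPM in WT barcodes of the high range and had no UMI in the low range of either library. A count of 0 there allows 81.0 CPM in KO and 69.9 CPM in WT barcodes (3 UMIs over the range), so Camp was at least 706-fold and 631-fold higher in the high range, a gap that the choice of range fixes. Chil3, a chitinase-like secreted protein whose gene the ranges did not use, showed the same step, at 6792 and 7883 CPM against 0 in the low range. It had a UMI in all 6 KO and all 13 WT barcodes of the high range. Fcnb, a ficolin of early granulocytes, stood at 179.9 and 1109 CPM against 0, but in only part of the high range. It was found in 4 of 6 KO and 6 of 13 WT barcodes, with 12 and 226 UMIs, 112 of the latter in 1 barcode. Lcn2, the siderophore-binding lipocalin, kept a lower level in the low range, 4349 KO and 1188 WT CPM, against 18218 and 13853 CPM in the high range. The oxidase gene Cybb, the neutrophil antigen gene Cd177 and the annexin gene Anxa1 were also higher there, Cybb at 1005 and 2046 CPM against 27.0 and 0 CPM in the low range.

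The low range carried receptors, cytokines and interferon-stimulated genes. Il1b, the gene of interleukin-1 beta, stood at 6132 CPM in KO and 4029 CPM in WT barcodes of the low range and at 15.0 and 29.4 CPM in the high range. It had a UMI in all 16 KO and all 16 WT barcodes of the low range, at 5.96 to 139 UMIs per 10000 in KO and 14.5 to 96.9 in WT barcodes. In the high range 1 of 6 KO and 2 of 13 WT barcodes held one. Cxcl2, itself a ligand of CXCR2, stood at 11292 and 8104 CPM in the low range and at 120.0 and 167 CPM in the high range. The chemokine gene Ccl4 and the small secreted protein gene Wfdc17 had no UMI in the high range, whereas in the low range Ccl4 stood at 1135 KO and 1793 WT CPM and Wfdc17 at 2701 and 1444 CPM.

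Receptor genes were also read mostly in the low range. Csf3r, the G-CSF receptor gene, stood at 810.4 KO and 1188 WT CPM in the low range, against 30.0 and 113 CPM in the high range, and Cxcr2 at 702 and 1211 CPM, against 165 and 309 CPM. Both are among the 4 genes of which every member, however shallow, had to hold 2, so these gaps are a description only. Il1r2, which the rule did not use, stood at 2107 and 2631 CPM in the low range, against 255 and 221 CPM, and the interferon-induced membrane protein gene Ifitm1 at 3674 and 2445 CPM in the low range, against 0 and 9.81 CPM. The proteoglycan gene Srgn, the ferritin gene Fth1 and S100a6 were also several-fold higher in the low range of both libraries, S100a6 at 14992 and 9617 CPM against 1694 and 672 CPM. Retnlg differed little between the ends, 12696 and 10665 CPM in the low and 10960.5 and 8781 CPM in the high range.

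**Figure D4:**
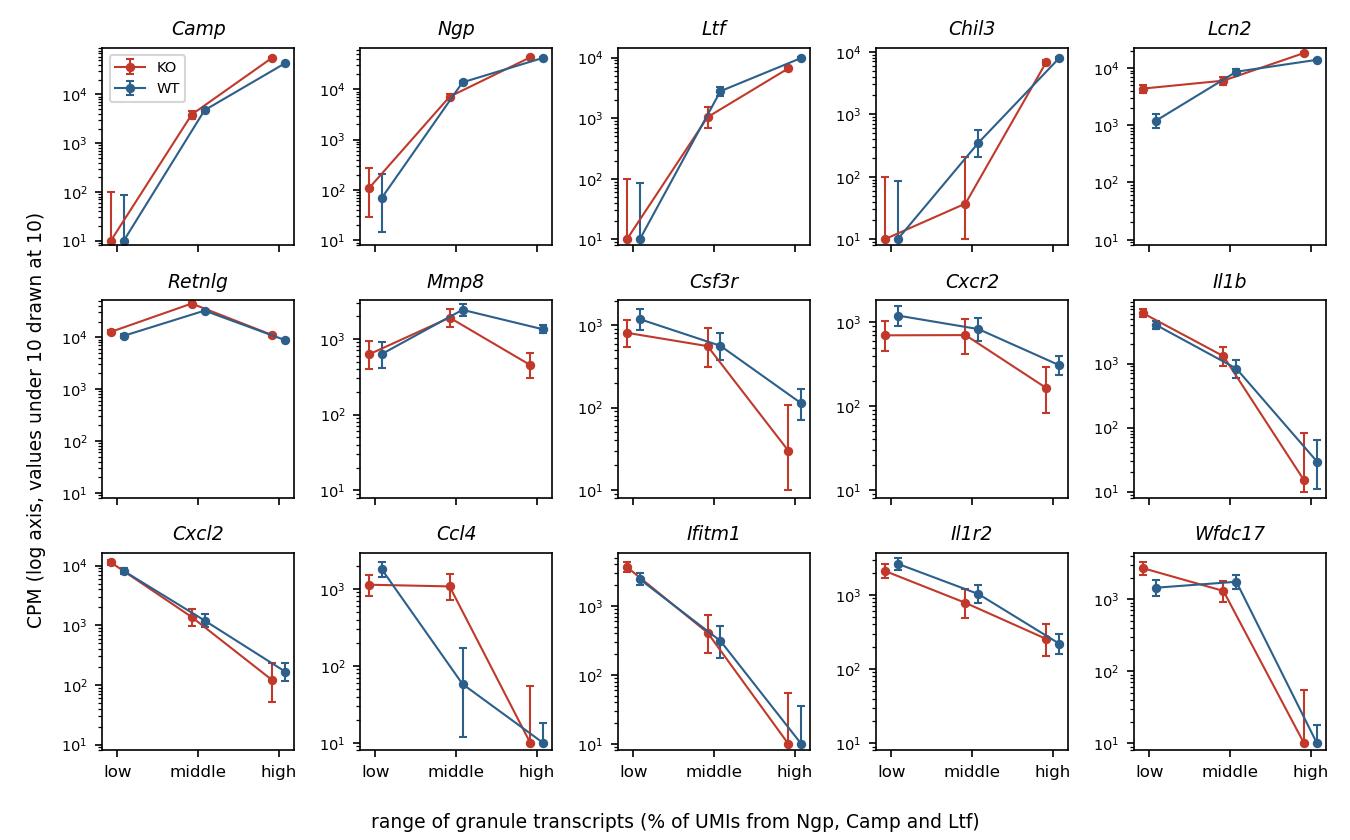
CPM (log axis) of 15 genes in the low, middle and high range of granule transcripts, for KO and WT neutrophils without mixed barcodes, with exact Poisson 95% intervals. Camp, Ngp, Ltf, Chil3 and Lcn2 are highest in the high range, and Il1b, Cxcl2, Ccl4, Ifitm1, Il1r2 and Wfdc17 are higher in the low than in the high range, in both libraries; ranges were set on Ngp, Camp and Ltf, and values under 10 are drawn at 10.

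A few members of the high range held genes of dividing cells. Of 10 such genes, among them Mki67, Top2a and Stmn1, 3 KO neutrophils held 31 to 73 UMIs and 4 WT neutrophils 64 to 163, while all other neutrophils held at most 1 in KO and 6 in WT barcodes. Those 7 barcodes had 14027 to 17526 UMIs in the KO library and 21365 to 40592 in the WT library, and none was mixed. They kept Camp at 531 to 1337 UMIs each in KO and 1207 to 2094 in WT barcodes, with Il1b at 0 or 1 UMI. They made up 11.1% (2.35 to 29.2%) of unmixed KO and 10% (2.79 to 23.7%) of unmixed WT neutrophils, but 36.2% and 41.7% of the UMIs. Cebpe, a transcription factor gene needed for specific granules, stood at 148 KO and 321 WT CPM in them and had no UMI in the low range.

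Promoters of genes from both ends of the axis are shown for the letters that 2 factor families are known to bind: C/EBP factors, which drive granule genes, and NF-kB, which drives cytokine genes. The sequences are the 250 bases before the start of the gene in RefSeq (GRCm38.p6), 5′ to 3′ on the gene's strand, with matches in capitals: TTNNGCAA or its reverse complement TTGCNNAA for C/EBP, and GGG and TTCC with any 3 letters between, or the reverse complement, for NF-kB, on both strands. Genes and letters were chosen with the values known. Ngp, neutrophilic granule protein, lies at chr9:110419558-110419807 on the + strand and Ltf at chr9:111019042-111019291 on the + strand, both with C/EBP matches. Cxcl2 lies at chr5:90903649-90903898 on the + strand and Nfkbia, the NF-kB inhibitor gene that NF-kB itself induces, at chr12:55492648-55492897 on the - strand, both with NF-kB matches.
Ngp: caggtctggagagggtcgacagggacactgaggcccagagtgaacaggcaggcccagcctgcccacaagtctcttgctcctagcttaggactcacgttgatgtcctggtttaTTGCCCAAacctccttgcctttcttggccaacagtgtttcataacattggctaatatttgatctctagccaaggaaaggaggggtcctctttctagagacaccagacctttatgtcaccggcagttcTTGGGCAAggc
Ltf: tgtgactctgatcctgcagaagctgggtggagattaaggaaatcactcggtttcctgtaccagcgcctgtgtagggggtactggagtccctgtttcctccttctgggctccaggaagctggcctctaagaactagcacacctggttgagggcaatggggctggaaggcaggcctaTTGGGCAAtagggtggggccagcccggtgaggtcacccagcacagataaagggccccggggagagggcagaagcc
Cxcl2: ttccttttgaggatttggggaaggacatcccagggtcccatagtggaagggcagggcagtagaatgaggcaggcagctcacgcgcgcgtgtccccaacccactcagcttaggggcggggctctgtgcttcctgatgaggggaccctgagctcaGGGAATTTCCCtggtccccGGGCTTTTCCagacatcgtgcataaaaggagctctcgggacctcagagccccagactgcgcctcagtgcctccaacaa
Nfkbia: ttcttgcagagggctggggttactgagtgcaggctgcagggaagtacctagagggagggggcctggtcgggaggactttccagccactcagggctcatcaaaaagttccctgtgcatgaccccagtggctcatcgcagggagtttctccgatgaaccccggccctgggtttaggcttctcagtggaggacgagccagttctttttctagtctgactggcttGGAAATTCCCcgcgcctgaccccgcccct

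The matches in Ngp lie 138 to 131 and 11 to 4 bases before the start and that in Ltf 75 to 68 bases before it. In Cxcl2 an overlapping pair lies 97 to 87 and a further match 78 to 69 bases before the start, and in Nfkbia a match lies 29 to 20 bases before it. Of 5 granule genes searched, Ngp, Ltf and Lcn2 held the C/EBP letters and none of the 5 the NF-kB letters. Of 4 inflammatory genes, Cxcl2 and Nfkbia held the NF-kB letters and none of the 4 the C/EBP letters. Camp, Chil3, Il1b and Ccl3 held neither in these windows. Of S100a8, S100a9, Il1r2, Csf3r, Cxcr2 and Retnlg, also searched, S100a9 and Retnlg held the C/EBP letters and Csf3r the NF-kB letters. Among 32851 promoter windows of the same length, 9.56% held the C/EBP letters and 4.65% the NF-kB letters. These letters are a description of the sequence and say nothing of binding in these cells.

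Between genotypes, summed over all neutrophils, 1895 genes had at least 40 UMIs over both libraries and 50 CPM in the higher one. At least 2-fold higher in KO neutrophils were 105 of them, 5.54%, and at least 2-fold lower 231, 12.2%. Without mixed barcodes 1012 genes met these limits, of which 35 (3.46%) were at least 2-fold higher and 57 (5.63%) at least 2-fold lower in KO neutrophils. Over all genes with 20 UMIs, the median log2 ratio of KO over WT (1 CPM added to each) was -0.12 over 3514 genes and -0.03 over 1922 genes without mixed barcodes. Groups below count genes with 20 UMIs. Of those 3514 genes, 6.15% were at least 2-fold higher and 15.1% at least 2-fold lower in KO neutrophils, and of the 1922 without mixed barcodes 4.73% and 9.68%. Each ratio is on the log2 scale with its counting interval in brackets.

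Of the 16 specific and gelatinase granule genes, 14 had at least 20 UMIs, 5 above and 9 below 0, with a median log2 ratio of -0.32 and 2 at least 2-fold lower in KO neutrophils. These were Ltf, lactoferrin, at 2424 CPM in KO and 5612 CPM in WT neutrophils, a log2 ratio of -1.21 (-1.36 to -1.07), and Cybb, the catalytic oxidase subunit, at 593 and 1261 CPM, -1.09 (-1.39 to -0.80). Without mixed barcodes Ltf stood at 3599 KO and 7206 WT CPM, and the ratio of Cybb was -1.16 (-1.51 to -0.83). Over all neutrophils, Camp was near equal at 20237 KO and 20983 WT CPM, and Ngp stood at 15899.5 and 22630.3 CPM. The barcode with most Camp UMIs accounted for 34.1% of them among KO and 21.1% among WT neutrophils. Slpi, a leukocyte protease inhibitor, was on the other side at 1944 KO and 1092 WT CPM (0.83, 0.64 to 1.03). The high range gave 51.1% of unmixed KO and 68.3% of unmixed WT UMIs, and within it these gaps differed. Camp was the higher in KO barcodes there, at 57232 KO and 44055 WT CPM, and Ltf stood at 6627 and 9840 CPM. Ngp was near even, with 2862 of 66694 KO and 8562 of 203860 WT UMIs. Cybb stayed lower, with 67 and 417 UMIs of these totals. The ranges were set on Ngp, Camp and Ltf.

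Oxidase subunits were split. Of 7, 4 lay above and 3 below 0, with a median of 0.08. Cyba, the membrane partner of Cybb, stood at 1552 CPM in KO and 927 CPM in WT neutrophils, a log2 ratio of 0.74 (0.53 to 0.96), opposite to Cybb. The cytosolic subunit genes Ncf1 and Ncf4 lay at -0.29 (-0.79 to 0.19) and 0.08 (-0.43 to 0.58), with intervals that take in 0.

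The Stfa genes, which code for stefins, inhibitors of cysteine proteases, were lower in KO neutrophils. Stfa2l1 stood at 268 (200.3 to 352) CPM in KO and 547 (482 to 618) CPM in WT neutrophils. Stfa1 had 14 KO and 73 WT UMIs, Stfa2 1 and 47, and Stfa3 0 and 54. By a limit of 3 UMIs, which does not cover differences between barcodes, Stfa3 was at least 7.37-fold lower in KO neutrophils. These values rest on few cells, since Stfa2 and Stfa3 were each found in 5 WT barcodes, and the barcode with most UMIs held 51.1% of those of Stfa2 and 70.4% of those of Stfa3. The Stfa genes are close copies, between which the counting could split reads. Of the 12 genes with 20 UMIs among S100 and stefin genes, 2 were at least 2-fold higher in KO neutrophils (S100a4 and Cst3). The 4 Stfa genes and S100a10, 5 in all, were at least 2-fold lower. Without mixed barcodes 10 genes were left, with 4 at least 2-fold lower. Only 1 was at least 2-fold higher there, S100a6 at 1.21, and not S100a4 or Cst3. Cstdc4, a stefin A family gene outside that list, went the other way from the Stfa genes, at 1139.7 KO and 463 WT CPM, 1.30 (1.02 to 1.58). Within the low range Cstdc4 was near equal at 3323 and 3074 CPM. S100a8 and S100a9 had log2 ratios of 0.04 and -0.18, while S100a6 stood at 6668 KO and 3684 WT CPM, 0.86 (0.75 to 0.96).

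Chemoattractant receptors were close to even. Of 9 chemoattractant receptor genes with 20 UMIs, 4 lay above and 5 below 0, and none passed 2-fold. Cxcr2 stood at 335 CPM in KO and 449.9 CPM in WT neutrophils, -0.42 (-0.85 to -0.02), and was found in 23 of 32 KO and 51 of 54 WT barcodes. Cxcr4, the marrow retention receptor gene, stood at 134 and 76.0 CPM, a log2 ratio of 0.81 (0.03 to 1.59), and at 1.06 (0.19 to 1.95) without mixed barcodes. Of 15 growth factor and cytokine receptor genes, 9 lay above and 6 below 0, with a median of 0.30, against -0.12 over all genes. Without mixed barcodes 10 of 14 lay above 0, with a median of 0.16 against -0.03. The interferon-gamma receptor gene Ifngr2 was the one past 2-fold over all neutrophils, at 6 KO and 47 WT UMIs. Without mixed barcodes Il10rb was also past 2-fold, at 1.07. Csf3r differed by less than its counting error, -0.11 (-0.61 to 0.37). Cxcr2 and Csf3r are genes of the rule, so their ratios and detection are a description only. The signalling adaptor gene Tyrobp stood at 2465 KO and 1322 WT CPM, and the selectin ligand gene Selplg at 206 and 99.3 CPM.

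Several cytokine transcripts were higher in KO neutrophils. Il1b stood at 1882 (1694 to 2086) CPM in KO and 883 (800.3 to 972) CPM in WT neutrophils, a log2 ratio of 1.09 (0.89 to 1.30), and Cxcl2 at 2708 (2481 to 2949) and 1504 (1395 to 1619) CPM, 0.85 (0.68 to 1.01). Without mixed barcodes the ratios were 1.44 and 1.25. Within ranges they were smaller: in the low range Il1b stood at 6132 KO and 4029 WT CPM, a ratio of 0.61, and Cxcl2 at 0.48, while the low range itself gave a larger part of the KO UMIs. Per barcode, unmixed neutrophils held a median of 27.6 (0 to 139) Il1b UMIs per 10000 in the KO library and 9.29 (0 to 96.9) in the WT library, and these distributions overlap widely.

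Not all secreted factors went that way. Il1rn, the gene of the IL-1 receptor antagonist, was lower at 299 (227 to 387) CPM in KO and 482 (421 to 548) CPM in WT neutrophils, and in the low range at 783 and 2026 CPM. Tnf had 2 KO and 25 WT UMIs, in 2 and 14 barcodes. Ccl3 was even at 159.9 and 154 CPM. Of 19 secreted factors with 20 UMIs, 11 lay above and 8 below 0, 4 were at least 2-fold higher (Ccl5, Cxcl10, Il6 and Il1b) and 4 at least 2-fold lower (Ccl2, Tnf, Cxcl3 and Cxcl1), with a median of 0.05. Without mixed barcodes 9 were left, with 6 above 0, 4 at least 2-fold higher, none 2-fold lower and a median of 0.55. Tnf, at 2 KO and 17 WT UMIs there, was not counted because it fell under the limit of 20 UMIs.

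Several of the widest ratios of secreted factors came from single barcodes. Ccl5 had 909 KO and 0 WT UMIs, but 1 mixed barcode held 99.3% of them and 3 UMIs were left without mixed barcodes. Cxcl10 stood at 335 KO and 14.8 WT CPM, with 89.2% of the KO UMIs in 1 unmixed barcode. Il6 had 23 KO UMIs, 95.7% of them in 1 barcode, and Ccl2, which fibroblasts express, had 6 KO and 131 WT UMIs and a ratio of -0.38 without mixed barcodes.

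Interferon-stimulated genes lay above the general median. Of 23 with 20 UMIs, 16 lay above and 7 below 0, 3 were at least 2-fold higher and 1 at least 2-fold lower, and the median was 0.33, against -0.12 over all genes. Without mixed barcodes 13 of 18 lay above 0, with a median of 0.47 against -0.03. Ifitm1 stood at 897 (769 to 1041) CPM in KO and 334 (284 to 390.0) CPM in WT neutrophils and Isg15, a ubiquitin-like protein, at 217 (156 to 293) and 99.3 (72.9 to 132) CPM. In the low range Ifitm1 had 3674 and 2445 CPM and Isg15 432 and 512 CPM, so that Isg15 was not the higher in KO barcodes there. Ifit1 rested on 1 barcode with 89.5% of its KO UMIs. Irf1 lay below 0 without mixed barcodes, at -1.11 (-3.14 to 0.45), with an interval that takes in 0.

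MHC class I genes were uneven. Of 13 with 20 UMIs, 11 lay above 0 and 4 were at least 2-fold higher in KO neutrophils, with a median of 0.82, but without mixed barcodes 5 of 9 lay above 0 and the median was 0.24. H2-D1, a heavy chain, stood at 1939 KO and 923 WT CPM, 1.07 (0.87 to 1.27), and at 0.89 (0.64 to 1.13) without mixed barcodes. B2m, the light chain of the same complex, was on the other side at 949 and 1168 CPM, and at -0.76 (-1.15 to -0.38) without mixed barcodes. Dendritic cell genes summed to 0 to 543 UMIs per KO neutrophil and 0 to 667 per WT neutrophil, with a median of 0 in both, and their part in the first median was not tested.

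Medians of the other groups, over all neutrophils, lay between -0.54 and 0.37. The 22 genes of a blood-like mature state had a median log2 ratio of 0.10, with 12 above and 10 below 0, NF-kB feedback genes 0.00 over 21, lineage transcription factors 0.06 over 18, glycolysis and hypoxia genes -0.25 over 19 and heat shock genes -0.18 over 9. Of 14 tissue and suppressive state genes, 11 lay above 0, with a median of 0.37, none at least 2-fold higher and 1 at least 2-fold lower. Without mixed barcodes 7 of 9 lay above 0, 3 were at least 2-fold higher and none lower, with a median of 0.54. Medians were -0.28 over 16 adhesion and migration genes, 11 of them below 0, and 0.08 over 23 Fc and pattern recognition receptor genes. They were -0.05 over 17 immediate early genes, 0.03 over 12 histamine and metal-handling genes and -0.54 over 9 lipid mediator genes. Of the immediate early genes, Fos and Jun were past 2-fold at -1.59 and -1.24. Without mixed barcodes these 2 stood at -0.22 and 1.15, but Jun fell under the limit of 20 UMIs there. Without mixed barcodes the medians of lipid mediator, glycolysis and immediate early genes turned to 0.27 over 6, 0.08 over 15 and 0.22 over 12 genes, and that of NF-kB feedback genes was -0.08 over 19. Of 15 survival and cell death genes 5 were at least 2-fold higher and 3 at least 2-fold lower in KO neutrophils, and of the 8 left without mixed barcodes 0 and 1; the higher ones include Bcl2a1a, Bcl2a1b and Bcl2a1d, close copies of 1 anti-apoptotic gene. Among transcription factors, Cebpe had 7 KO and 44 WT UMIs in 2 and 6 barcodes, and Cebpb stood at 1986 and 1457 CPM. Klf2, at 588 and 259.8 CPM and a log2 ratio of 1.18, was the 1 at least 2-fold higher in KO neutrophils. Without mixed barcodes none of the 16 with 20 UMIs was at least 2-fold higher. Of 12 genes of extracellular traps and degranulation, 6 lay above and 6 below 0, with a median of -0.11. At least 2-fold higher in KO neutrophils were 2 and at least 2-fold lower 2, and without mixed barcodes 2 and 3. The higher ones were the SNARE genes Vamp8 and Snap23, at 222 and 206 CPM, against 92.9 and 99.3 CPM in WT neutrophils. Rab27a, which docks granules, was lower with 3 KO and 25 WT UMIs.

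The ranking of single genes turned on the mixed barcodes. Over all neutrophils, the 12 lowest ratios, among them those of Col15a1, Sparcl1, Cdh11 and the imprinted gene H19, all belonged to genes with a higher level in fibroblasts than in macrophages or T cells. Postn, the gene of a matrix protein, had 4 KO and 1048 WT UMIs, of which 7 WT UMIs were left without mixed barcodes, and Sparcl1 had 0 and 66, none of them left. Fibroblast genes as a list summed to 6534 CPM in KO and 23188 CPM in WT neutrophils, with 8 of 12 at least 2-fold lower, and to 436 and 607 CPM without mixed barcodes. The highest ratios were those of Ccl5, Cxcl10, Satb1, Gas5, Jdp2, Traf1, H2-Q7, Odc1, Vps37b, Ninj1, Asprv1 and Ifitm1. A single barcode held most of the KO UMIs of Ccl5, Cxcl10, Satb1, Gas5, Odc1 and Vps37b, from 60.9% for Vps37b to 99.3% for Ccl5. Satb1, a chromatin organiser of lymphocytes, turned to -0.58 without mixed barcodes, on 2 KO and 7 WT UMIs.

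A smaller set kept its side with and without mixed barcodes and was spread over many barcodes. Jdp2, a repressor of AP-1, was found in 19 of 32 KO and 16 of 54 WT neutrophils at 263 (196 to 346) and 59.1 (39.3 to 85.5) CPM, with ratios of 2.13 over all and 2.22 over unmixed neutrophils, and it was the higher in KO barcodes of both the low range (405 and 116 CPM) and the high range (225 and 44.1 CPM). Jdp2 also lay higher in all other KO barcodes, at 86.7 CPM against 54.4 CPM in the WT library, so this difference was not limited to neutrophils. Asprv1, an aspartic protease gene, stood at 489.9 and 171 CPM in 17 KO and 23 WT neutrophils, 1.51 (1.07 to 1.96). Its ratio was 0.89 within the low range (1513 KO and 815 WT CPM), and in the high range it stood at 15.0 and 54.0 CPM. The membrane protein gene Ninj1 stood at 217 and 73.9 CPM, and at 513 and 349 CPM in the low range. Fcnb, lower in KO neutrophils, rested on fewer: it had 12 KO and 228 WT UMIs in 4 and 8 barcodes, with 49.1% of the WT UMIs in 1 barcode. The inflammasome gene Nlrp3, ranked high only without mixed barcodes, stood there at 184 KO and 53.6 WT CPM; this ranking was made after the values had been seen.

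**Figure D5:**
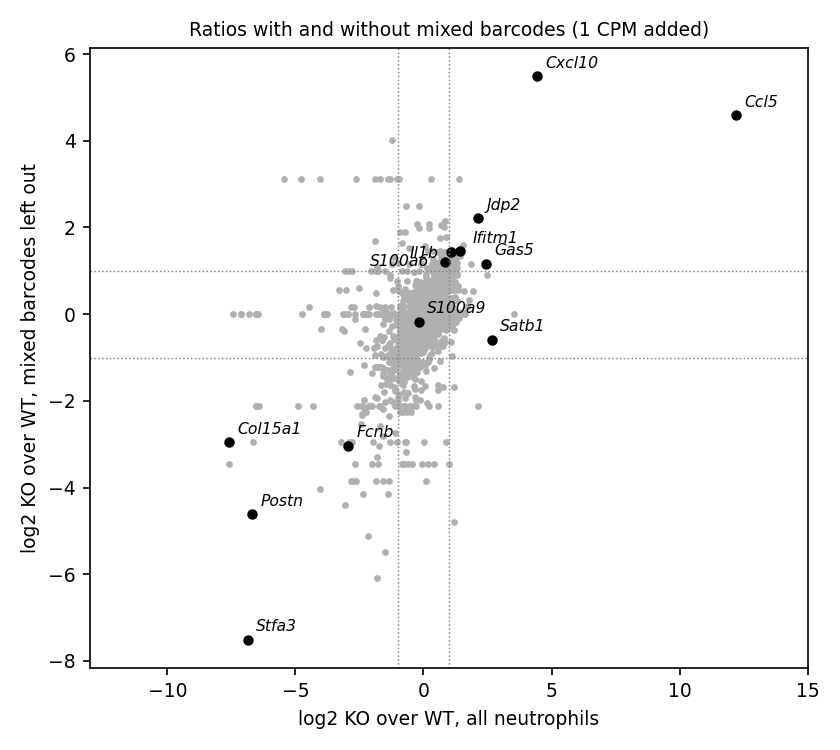
log2 ratio of KO over WT for 1895 genes, over all neutrophils (x) and without mixed barcodes (y), with 1 CPM added; dotted lines mark 2-fold. Col15a1 and Postn lie far left and keep at most 7 WT UMIs without mixed barcodes, Satb1 changes side, and Jdp2, Il1b and Ifitm1 lie beyond 2-fold on both axes. Ccl5 had no WT UMI and Stfa3 no KO UMI, so their places depend on the added CPM.

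Set beside macrophages of the same libraries (140 KO and 133 WT barcodes), neutrophils shared Il1b, Cxcl2 and Lyz2 and not Camp or Ngp. Il1b stood at 1882 KO and 883 WT CPM in neutrophils, against 1611 and 1651 CPM in macrophages, and Cxcl2 at 2708 and 1504 CPM, against 7487 and 6558 CPM. Il1b thus differed less between KO and WT macrophages than between KO and WT neutrophils, a difference that could not be tested with 1 library per genotype. Lyz2, the lysozyme gene, was at 3739 and 3487 CPM in neutrophils and 4108 and 2546 CPM in macrophages. Il1rn was lower in the KO library in both classes, in macrophages at 405 KO and 729.7 WT CPM. Camp and Ngp were at most 2.19 CPM in macrophages. In T cells, which should lack S100a9, its level was 1.94 CPM in KO and 10.5 CPM in WT barcodes.

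Genes that attract neutrophils were read in the rest of the gland. In all other barcodes, Cxcl1 stood at 447 CPM in the KO and 518 CPM in the WT library, Cxcl2 at 294 and 279 CPM, Cxcl5 at 23.6 and 24.2 CPM, and Cxcl12, the CXCR4 ligand gene, at 110 and 142 CPM. Csf3, the gene of G-CSF, stood at 37.7 CPM in KO and 48.1 CPM in WT barcodes, and Csf2, the gene of GM-CSF, at 8.39 and 3.69 CPM. Cxcl1, Csf3 and Cxcl12 were thus lower and Csf2 higher in the KO library, where neutrophils were the smaller share. Whether these levels bear on the share was not tested.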

How the data were processed

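UMI counts per gene and barcode were deposited by the authors as 1 10x matrix per genotype, KO and WT, with 32285 genes each. Cell Ranger 5.0.1, Seurat 3.2.0 and the mm10 genome are named in the submitters' processing notes, with no role given, and the counts were used as deposited. Barcodes were kept and neutrophils chosen by the rule given in the report, and UMIs were summed over neutrophils per library. Ratios are log2 of CPM with 1 CPM added. The 10x totals were 193905 UMIs over KO and 473436 UMIs over WT neutrophils, and their number limits the precision.

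The members and gene lists were chosen with earlier results of these data known. Lists were described over genes with at least 20 UMIs in both libraries together. Single genes were named as genes of the rule with Ly6g and Gpm6a; the 15 with the highest level; the 20 highest over other barcodes; the 12 highest and 12 lowest ratios among genes with at least 40 UMIs, 50 CPM in the higher library, a level at least 0.5 times that of other barcodes and a UMI in 10% of members of the higher library; and list members. Left unnamed were genes of ribosomal proteins, haemoglobins and mitochondria and those with Gm or Rik symbols. Doublets were called with Scrublet in scanpy 1.11.5 and not removed, except in an alternative. Macrophages, T cells and fibroblasts were set by marker UMIs. Intervals came from scipy 1.17.1 under Python 3.11.15 with numpy 2.4.6 and pandas 2.3.3, and the ratio and interval steps were tested on simulated data. Alternatives were other limits of the rule, pseudocounts, centring, thinning to 1000 UMIs, means over barcodes, and leaving out doublets, members with fibroblast genes, mixed barcodes or the deepest member.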

Additional observations from a re-analysis of the deposited data

How the results depend on the processing

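The lower KO share of neutrophils kept its direction under all 14 alternatives, with log2 ratios between -1.38 (Ptprc barcodes as denominator) and -0.33 (members with fibroblast genes left out). Counts past 2-fold, 105 higher and 231 lower of 1895 genes, moved more, as did the number of genes that met the limits. They were 18 and 18 of 254 genes after thinning each barcode to 1000 UMIs. At a minimum of 20 UMIs they were 216 and 380 of 2643 genes, and at 100 UMIs 53 and 77 of 749. Without mixed barcodes they were 35 and 57 of 1012 genes, and 46 and 83 of 995 as means over members. Leaving out the deepest member of each library gave 43 higher of 1738 genes, and leaving out members with fibroblast genes gave 57 lower of 1104. What moved the counts beside the number of genes was not tested. Reversed after thinning were Ep300 (0.018), Nusap1 (5.01), Odc1 (-0.24), Phf20l1 (0.17), Satb1 (-5.25) and Xbp1 (1.07). These values rest on few UMIs: before thinning Nusap1 had 6, Ep300 10, Xbp1 11 and Phf20l1 12 KO UMIs, and Satb1 13 WT UMIs. H19 turned to 2.73 without members with fibroblast genes and to 3.11 without mixed barcodes (2.84 as means), Satb1 to -0.58 and -0.61 in these last settings, and Odc1 to -0.22 without the deepest members and to -2.14 in the means. Without mixed barcodes H19 had 1 KO and 0 WT UMIs, Satb1 2 and 7, and Odc1 5 and 9. Ratios of genes at 0 in 1 library depend on the added CPM, and with 0.1 CPM those of Stfa3, Col15a1, Ccl5 and others moved away from 0 by over 3 log2 units. Of 75 single genes, 72 kept their value within counting error after centring and 48 without mixed barcodes. The median of genes with 100 UMIs shifted by 0.16 after thinning and by 0.05 in the report's ratios. No paired analysis was possible because each genotype has 1 library. Depth limits genes under 40 UMIs and any value in the low range.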
